A study of Mus musculus with 8 samples.

Results

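The genes described here are 10 immediate early genes, Fos, Fosb, Jun, Junb, Egr1, Atf3, Ier2, Ier3, Dusp1 and Phlda1, chosen by name from the 20408 genes found in any of 8 single-cell RNA-seq libraries of sorted mouse tumour endothelial cells (ECs). All 10 were present in all 8 libraries and all 10 passed the filter on low values. The libraries came from a spontaneous breast tumour, in which the MMTV promoter drives the PyMT oncogene in the mammary epithelium of transgenic mice, and from an orthotopic tumour made by implanting cultured cells of such tumours into the mammary fat pad. Each tumour received PBS or cGAMP, a cyclic dinucleotide that activates STING, and live CD31+ cells were sorted after 3 h, giving 2 libraries for each of 4 groups. The mice were female, 9 weeks old when treatment of spontaneous tumours began and 8 to 9 weeks old at implantation. The labels call all of them adult and give the strain as C57BL/6, but FVB is the background of spontaneous and implanted tumour mice alike in the methods, which leaves the strain unclear. The methods give 2 mice per group, and whether each library is 1 mouse is not stated, so the spread between libraries may be technical.

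Immediate early genes are transcribed within minutes of a growth factor, cytokine or stress signal, without new protein synthesis, through kinase cascades that act on transcription factors already bound at their promoters. Fos, Fosb, Jun and Junb encode subunits of the dimeric factor AP-1, Atf3 encodes a partner of Jun proteins, and Egr1 encodes a zinc finger factor. Dusp1 encodes a phosphatase that switches MAP kinases off again, Ier3 is a stress-response gene that NF-kB can induce, Ier2 encodes a nuclear protein, and Phlda1 encodes a protein with a pleckstrin homology-like domain. In ECs these genes are known to answer to shear stress, VEGF and inflammatory cytokines. They are also known to be induced while tissue is dissociated, and the study's methods give an enzyme digestion of 30 min at 37 °C for sorting ECs for bulk RNA-seq without repeating it for the single-cell libraries, so the part of the digestion in the levels was not tested.

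RefSeq promoters (GRCm38.p6, the 250 bases before the transcription start) were at hand for 7 of the members, Atf3, Dusp1, Fos, Fosb, Ier3, Jun and Junb, and not for Egr1, Ier2 and Phlda1. They are shown for Fosb and Dusp1, which rose after cGAMP in implanted tumours, for Ier3, whose level set the venous marker set apart, and for Fos, the member most correlated with the others. Capitals mark the cAMP response element TGACGTCA, its core TGACG, the EGR site GCGNGGGCG, or the NF-kB site by its consensus, each searched on both strands.
Fosb, chr7:19310046-19310295, minus strand: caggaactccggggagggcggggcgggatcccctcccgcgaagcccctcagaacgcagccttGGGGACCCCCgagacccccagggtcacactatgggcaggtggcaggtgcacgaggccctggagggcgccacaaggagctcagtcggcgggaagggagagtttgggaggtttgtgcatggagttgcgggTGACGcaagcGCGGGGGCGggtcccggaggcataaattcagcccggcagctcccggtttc
Dusp1, chr17:26508473-26508722, minus strand: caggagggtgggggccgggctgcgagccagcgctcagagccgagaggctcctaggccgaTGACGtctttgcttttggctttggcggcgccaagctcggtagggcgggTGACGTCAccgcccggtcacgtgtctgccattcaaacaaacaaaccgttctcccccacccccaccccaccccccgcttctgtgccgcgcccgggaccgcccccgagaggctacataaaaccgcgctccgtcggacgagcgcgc
Fos, chr12:85473640-85473889, plus strand: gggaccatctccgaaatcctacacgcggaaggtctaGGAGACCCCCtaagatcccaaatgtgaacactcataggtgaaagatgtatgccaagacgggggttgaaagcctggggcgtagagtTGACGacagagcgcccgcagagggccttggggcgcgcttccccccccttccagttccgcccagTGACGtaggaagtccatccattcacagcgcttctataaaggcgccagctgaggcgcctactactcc
Ier3, chr17:35821463-35821712, plus strand: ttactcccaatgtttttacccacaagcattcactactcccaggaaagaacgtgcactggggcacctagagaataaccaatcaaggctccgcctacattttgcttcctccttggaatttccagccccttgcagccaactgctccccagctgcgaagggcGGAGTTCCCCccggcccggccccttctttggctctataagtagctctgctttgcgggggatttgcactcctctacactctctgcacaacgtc
The whole cAMP response element was found only in Dusp1 among the 7 promoters and in 1.55% of 32851 RefSeq promoters of the same length. Its core, which also lies within the whole element, was found in 5 of the 7, all but Ier3 and Jun, against 17.8% of all promoters. The EGR site was found in Fosb (4.70% of all promoters) and the NF-kB site in Fos, Fosb and Ier3 (3.90%). The AP-1 site TGANTCA (6.75%) and the CArG box, the site of serum response factor (1.47%), were found in none of the 7. These matches describe the letters of these windows alone.

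The tables held 8204 cells with 97421522 UMIs (unique molecular identifiers, 1 per captured RNA molecule). The members were described in the 7159 cells with at least 1 UMI of Pecam1, which encodes CD31, 601 to 1529 cells per library. Any pair of libraries shared at most 3 cell barcodes. Replicate 1 of implanted cGAMP stood apart, with a median of 3049 UMIs in these cells and 37.9% of them under 2000 UMIs, against medians of 9523 to 14707.5 and 3.28% to 10.6% in the other libraries. The median mitochondrial share was 4.23% to 4.47% in the PBS libraries and 2.34% to 3.13% in the cGAMP libraries. All 8 endothelial markers checked (Pecam1, Cdh5, Kdr, Tek, Tie1, Flt1, Erg and Emcn) were found in every library, with summed levels of 4258 to 5519 CPM (UMIs scaled to 1000000 per cell, averaged over cells).

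All members were expressed in every library. The lowest UMI total behind a value was 835 UMIs, for Phlda1, and the other members had at least 913 UMIs in every library. Over the libraries, the ratio of the highest to the lowest level was 1.43 for Ier3, 1.63 for Junb, 1.66 for Ier2, 1.81 for Fos, 2.05 for Jun, 2.06 for Egr1 and Dusp1, 2.13 for Phlda1, 2.19 for Fosb and 2.48 for Atf3. In bulk sums and cell means alike, more cells with a transcript and more RNA per cell cannot be told apart. In cells reduced at random to 2000 UMIs each, the mean share with a UMI of Fosb after PBS and cGAMP was 35.5% and 48.6% in spontaneous tumours. In implanted tumours it was 35.6% and 51.1%. For Phlda1 these shares were 14.6% and 11.6%, and 8.73% and 12.4%. The other members had higher shares after cGAMP in both models. These shares were not tested.

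**Figure D1:**
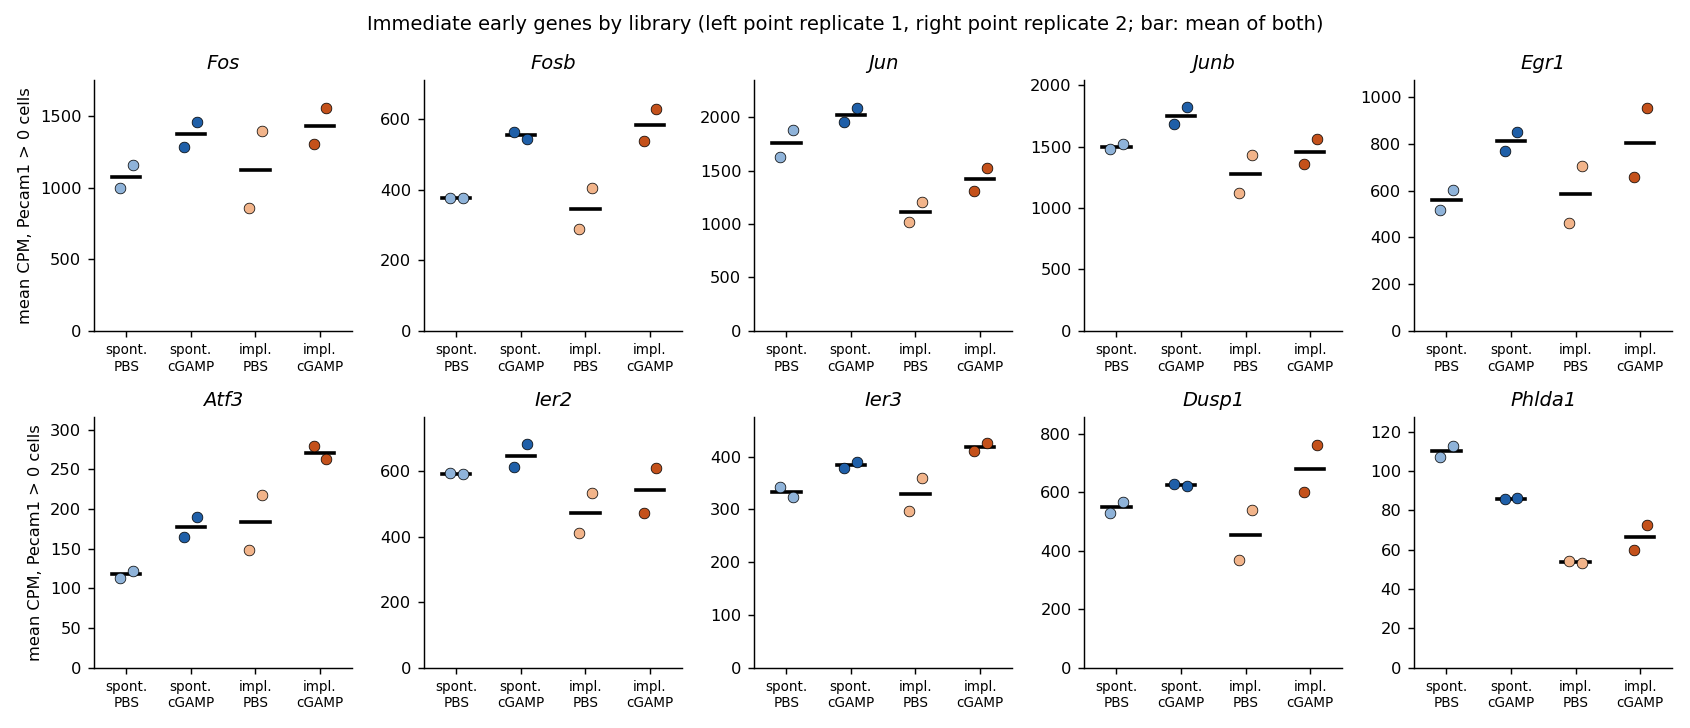
Mean CPM over Pecam1+ cells (y axis, starting at 0) of each immediate early gene in the 8 libraries, by group (x axis); points are libraries and black bars the mean of both. After cGAMP both spontaneous libraries sat above both PBS libraries for 9 members and below them for Phlda1.

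The first comparison asked how the genes answered to cGAMP in spontaneous tumours. Fosb and Atf3 rose, by 1.47-fold and 1.5-fold, and no member fell past the threshold. These 2 of 10 members called higher stand beside 12.7% of the 10424 genes tested that were called at all, 5.09% higher and 7.59% lower (limma on log2 of mean CPM + 1, Benjamini-Hochberg adjusted p under 0.05). The median log2 fold change of the members was 0.21, against -0.10 for all genes tested. With median-of-ratios scaling these medians were 0.32 and -0.0046, and 66.2% rather than 40.2% of all calls were higher.

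Among the AP-1 genes, Fosb was at 376 and 377 CPM in the spontaneous PBS libraries, 565 and 545 in spontaneous cGAMP, 288 and 405 in implanted PBS and 538 and 630.1 in implanted cGAMP. Both spontaneous cGAMP libraries lay above both PBS libraries, which were almost equal. The log2 fold change was 0.56 ± 0.14 (SE, n = 2 against 2, limma adjusted p = 0.0309, 4.7e-04 to 0.443 over 23 alternative settings). Atf3 was at 113 and 122 CPM in the spontaneous PBS libraries, 164 and 189.9 in spontaneous cGAMP, 148 and 218 in implanted PBS and 279 and 263 in implanted cGAMP. The spontaneous groups did not overlap, and the log2 fold change was 0.59 ± 0.16 (limma adjusted p = 0.0401, 0.00286 to 0.221 over the alternatives). Neither Fosb nor Atf3 was called in cells under 5% mitochondrial UMIs or in cells outside the proliferative marker set, introduced below. That set held 8.60% and 7.15% of the Pecam1+ cells in spontaneous PBS and 3.58% and 3.32% in spontaneous cGAMP. The part of this in the result was not tested further. Both calls were lost when any 1 of the 4 spontaneous libraries was left out, with limma adjusted p of 0.116 to 0.16 for Fosb and 0.104 to 0.221 for Atf3 and log2 fold changes of 0.53 to 0.59 and 0.48 to 0.69.

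The other AP-1 genes and Egr1 were higher in both cGAMP libraries as well, without passing the threshold. Fos was at 995 and 1154 CPM in the spontaneous PBS libraries, 1285 and 1461 in spontaneous cGAMP, 859 and 1392 in implanted PBS and 1302 and 1558 in implanted cGAMP. Jun was at 1632 and 1880.0 CPM in the spontaneous PBS libraries, 1955 and 2084 in spontaneous cGAMP, 1015 and 1203 in implanted PBS and 1311 and 1527 in implanted cGAMP. Junb was at 1479.9 and 1521 CPM in the spontaneous PBS libraries, 1681 and 1822 in spontaneous cGAMP, 1121 and 1433 in implanted PBS and 1359 and 1559 in implanted cGAMP. Their spontaneous groups did not overlap, and the log2 fold changes were 0.35 ± 0.19 for Fos, 0.20 ± 0.11 for Jun and 0.22 ± 0.11 for Junb, with limma adjusted p of 0.252, 0.246 and 0.228. Egr1 was at 516 and 604 CPM in the spontaneous PBS libraries, 770.3 and 851 in spontaneous cGAMP, 462 and 706 in implanted PBS and 659.7 and 952 in implanted cGAMP. Its log2 fold change in spontaneous tumours was 0.54 ± 0.20 (limma adjusted p = 0.119), a size close to that of Fosb with a wider error.

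Of the remaining members, Dusp1, the MAP kinase phosphatase, was at 529.7 and 568 CPM in the spontaneous PBS libraries, 628 and 622 in spontaneous cGAMP, 369 and 539 in implanted PBS and 602 and 761 in implanted cGAMP. Ier2 was at 594 and 590.1 CPM in the spontaneous PBS libraries, 611 and 682 in spontaneous cGAMP, 410.2 and 533 in implanted PBS and 472 and 609 in implanted cGAMP. Ier3 was at 343 and 323 CPM in the spontaneous PBS libraries, 378 and 389 in spontaneous cGAMP, 298 and 359.6 in implanted PBS and 411 and 426 in implanted cGAMP. All 3 were higher in both spontaneous cGAMP libraries than in both PBS libraries by small steps, with log2 fold changes of 0.19 ± 0.16, 0.12 ± 0.14 and 0.20 ± 0.09 and limma adjusted p of 0.481, 0.601 and 0.173. Phlda1 went the other way and was at 107 and 113 CPM in the spontaneous PBS libraries, 85.7 and 86.2 in spontaneous cGAMP, 54.4 and 53.1 in implanted PBS and 59.9 and 72.6 in implanted cGAMP. Its log2 fold change in spontaneous tumours was -0.35 ± 0.10 (limma adjusted p = 0.0527), and it passed the threshold in 10 of 23 alternatives. Counted over the members, 9 had both spontaneous cGAMP libraries above both PBS libraries, as did 18.8% of all genes tested, and 1 had them below, as did 41.5%.

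In implanted tumours 5 members rose after cGAMP, the AP-1 genes Fosb, Atf3 and Jun, the phosphatase gene Dusp1, and Ier3, and no member fell past the threshold. This stands beside 25% of all genes tested that were called, 8.6% higher and 16.4% lower. The median log2 fold change of the members was 0.37, against -0.10 for all genes. With median-of-ratios scaling these medians were 0.47 and -0.0075, and 51.4% rather than 34.3% of all calls were higher. Fosb rose most, by 0.77 ± 0.14 on the log2 scale (limma adjusted p = 0.00388), and was called in all 23 alternatives. Dusp1 followed with 0.60 ± 0.16 (limma adjusted p = 0.0236), Atf3 with 0.59 ± 0.16 (adjusted p = 0.0223), Jun with 0.36 ± 0.11 (adjusted p = 0.0402) and Ier3 with 0.35 ± 0.09 (adjusted p = 0.0205). Both cGAMP libraries lay above both PBS libraries for these 5 and for Phlda1, that is for 6 of 10 members against 21.6% of all genes, and below both for none against 41.6%.

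Fos, Egr1, Junb and Ier2 overlapped between the implanted groups, with replicate 2 of implanted PBS above replicate 1 of implanted cGAMP for all 4. Their log2 fold changes were 0.38 ± 0.19, 0.47 ± 0.20, 0.20 ± 0.11 and 0.20 ± 0.14, with limma adjusted p of 0.184, 0.124, 0.238 and 0.344. The 2 implanted PBS libraries differed more from each other than the 2 spontaneous PBS libraries did for 9 members, Phlda1 being the exception. The number of members called moved with single libraries. It was 1 without replicate 1 of implanted PBS (Fosb), 7 without replicate 2 of implanted PBS and 2 without replicate 2 of implanted cGAMP (Fosb and Atf3). Without replicate 1 of implanted cGAMP, the shallow library, it was 6, with Atf3 lost (limma adjusted p = 0.0688) and Egr1 and Phlda1 gained (adjusted p = 0.0283 and 0.0137). The proliferative marker set, introduced below with the others, held 12.8% and 15.9% of the Pecam1+ cells in the implanted PBS libraries and 2.94% and 2.32% in the implanted cGAMP libraries, and the part of this in the result was not tested beyond leaving these cells out. In cells outside the set 2 members were called, Fosb and Phlda1, and the adjusted p of Jun, Atf3, Ier3 and Dusp1 was 0.13, 0.0921, 0.105 and 0.0689. Of all 10343 genes tested in those cells, 2294 were called. The Jun call was also lost without either spontaneous cGAMP library, which took part in the same fit (adjusted p = 0.0648 and 0.0652).

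**Figure D2:**
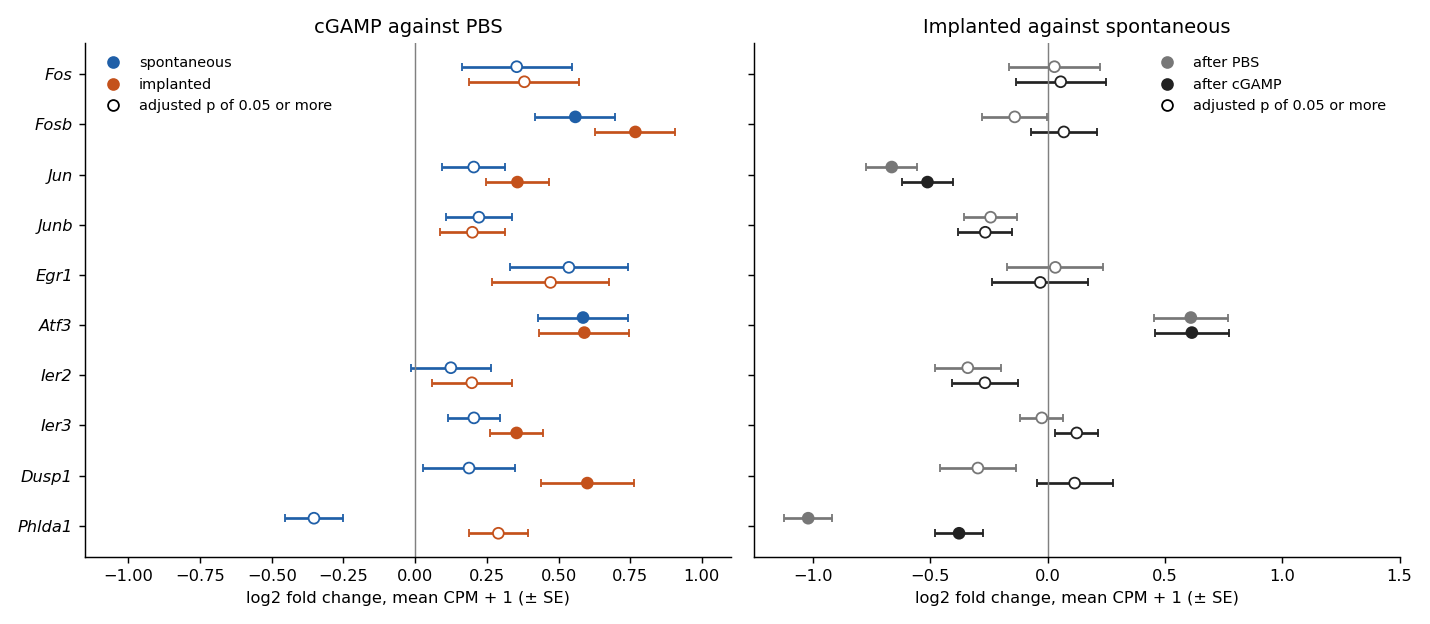
Log2 fold changes with SE (x axis) of each immediate early gene (y axis) for cGAMP against PBS in both tumour models (left) and for implanted against spontaneous tumours after each injection (right); filled points passed the adjusted p threshold of 0.05. On the left 2 spontaneous and 5 implanted points are filled, and on the right Jun, Atf3 and Phlda1 are filled after both injections.

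The size of the response was then compared between the models. No member passed the test of the difference (implanted minus spontaneous), which 0.662% of all genes passed (0.201% higher and 0.46% lower), and 1 member had an unadjusted limma p under 0.05. That member was Phlda1, whose log2 fold change after cGAMP was -0.35 ± 0.10 in spontaneous and 0.29 ± 0.10 in implanted tumours (limma adjusted p = 0.0527 and 0.0659, neither past the threshold). Its difference of log2 fold changes was 0.64 ± 0.14 (limma adjusted p = 0.0934), and without replicate 1 of implanted cGAMP it was 0.78 (adjusted p = 0.0309). For the other 9 the difference ran from -0.06 ± 0.29 for Egr1 to 0.41 ± 0.23 for Dusp1.

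Compared directly, the models differed in 3 members after either injection. Phlda1 and Jun were lower and Atf3 was higher in implanted tumours, whereas 7.83% of all genes were called after PBS (3.39% higher and 4.44% lower) and 13.8% after cGAMP (5.23% higher and 8.53% lower). Phlda1 differed most after PBS, by -1.02 ± 0.10 on the log2 scale (limma adjusted p = 6.2e-04), which held in all 23 alternatives. After cGAMP the difference was -0.38 ± 0.10 (adjusted p = 0.0400) and held in 8 of 23, among single libraries only without replicate 2 of implanted cGAMP (adjusted p up to 0.186 without the others). In the cells outside all 6 marker sets introduced below it was -0.01 (adjusted p = 0.982), and in cells without UMIs of Ptprc, Epcam or Pdgfrb it was -0.12 (adjusted p = 0.504). Phlda1 was at 59.2 to 321 CPM in cells without Pecam1 UMIs, and was higher there than in Pecam1+ cells in 7 of 8 libraries. Those cells came from the same sort of CD31+ cells and were shallow, with medians of 1105 to 2383 UMIs. They numbered 50 to 99 per library, and 496 in replicate 1 of implanted cGAMP. The part of depth in this was not tested.

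Jun was lower in implanted tumours, with differences of -0.66 ± 0.11 after PBS and -0.51 ± 0.11 after cGAMP on the log2 scale (limma adjusted p = 0.00734 and 0.0166), and the models did not overlap after either injection. Atf3 was higher by 0.61 ± 0.16 and 0.61 ± 0.16 (adjusted p = 0.046 and 0.0321), again without overlap. The Jun call after PBS was lost without replicate 2 of spontaneous PBS (adjusted p = 0.0787) or replicate 1 of implanted PBS (adjusted p = 0.0658). After cGAMP it was lost without either spontaneous cGAMP library (adjusted p = 0.065 and 0.133) or replicate 1 of implanted cGAMP (adjusted p = 0.0646). The Atf3 call after PBS was lost without any 1 spontaneous library or replicate 2 of implanted PBS (adjusted p = 0.0737 to 0.195), and that after cGAMP without any 1 cGAMP library (adjusted p = 0.0504 to 0.173). With median-of-ratios scaling 67.8% rather than 43.3% of all calls were higher in implanted tumours after PBS, and 58.4% rather than 38.0% after cGAMP. Fos, Fosb, Egr1 and Dusp1 overlapped between the models after both injections. Both implanted libraries were above both spontaneous ones for 1 member after PBS and 2 after cGAMP, as for 21.5% and 21.4% of all genes, and below for 4 members each time, as for 36.5% and 35.6%.

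Markers of other cells moved with some of these comparisons. In Pecam1+ cells the 5 mural markers summed to 32.3 and 139 CPM in the spontaneous PBS libraries, 180 to 305 CPM in spontaneous cGAMP and 55.7 to 138 CPM in implanted tumours. The 8 leukocyte markers summed to 10.7 to 18.8 CPM after PBS, 27.0 to 34.0 CPM in spontaneous cGAMP and 41.7 and 172 CPM in implanted cGAMP, with Adgre1 at 0 in 3 libraries. The 6 epithelial markers summed to 350 CPM in replicate 1 of implanted cGAMP and 49.8 to 153 CPM elsewhere, and the 5 fibroblast markers to 12.1 to 88.5 CPM. In cells without UMIs of Ptprc, Epcam or Pdgfrb, 2 members were called in spontaneous tumours after cGAMP, Fosb higher and Phlda1 lower, and 3 in implanted tumours. Of all 10337 genes tested in those cells, 1120 and 2301 were called. The part of the remaining contaminating RNA in the result was not tested.

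The genes around the members were described from lists drawn up by role. The lists were chosen with earlier results of these data known, so their counts are descriptions only. Of 33 other early response genes 32 were tested, and 2 rose and 1 fell after cGAMP in spontaneous tumours. Of all genes tested 5.09% rose and 7.59% fell there, and the median log2 fold change of the list was 0.02. Csrnp1 rose by 0.98 ± 0.11 and Cebpb, which encodes a C/EBP transcription factor, by 0.54 ± 0.13, whereas Zfp36l1, an RNA decay factor, fell (-0.29 ± 0.07). In implanted tumours 11 rose and 2 fell, against 8.6% and 16.4% of all genes tested, with a median of 0.16. Cebpb (1.29 ± 0.13), Csrnp1 (1.23 ± 0.11) and Maff (0.86 ± 0.18) led those that rose, and Cebpd (-0.63 ± 0.09) and Gadd45g (-0.36 ± 0.11) were those that fell. No gene of this list passed the test of the difference between the responses, which 0.662% of all genes passed.

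MAP kinase feedback genes encode Dusp phosphatases, Sprouty and Spred proteins and related brakes. Of 11 tested, 1 rose and 1 fell in spontaneous tumours, Errfi1 (0.54 ± 0.14) and Dusp8 (-0.77 ± 0.19). Of all genes tested 5.09% rose and 7.59% fell there. In implanted tumours 6 rose and none fell, against 8.6% and 16.4% of all genes tested. Dusp5 (1.04 ± 0.21) and Dusp16 (0.92 ± 0.14) led those that rose. The Dusp16 response differed between the models (1.17 ± 0.19, limma adjusted p = 0.0400, up to 0.617 over the alternatives). Of 27 genes of the kinase cascade and of the factors SRF and CREB above the members, 1 rose in spontaneous tumours, Map2k1 (0.51 ± 0.12), and in implanted tumours 2 rose and 4 fell, against 8.6% and 16.4% of all genes tested. Map2k1 (0.68 ± 0.12) and Mapkapk2 (0.33 ± 0.10) were the 2 that rose, and Map2k6 (-0.95 ± 0.18) and Braf (-0.50 ± 0.14) led those that fell.

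Of 15 TNF and NF-kB target genes, 3 rose and 1 fell in spontaneous tumours, against 5.09% and 7.59% of all genes tested. In implanted tumours 7 rose, against 8.6% of all genes tested. The chemokine gene Ccl2 changed by 3.32 ± 0.38 and 4.58 ± 0.38, the adhesion gene Vcam1 rose in spontaneous tumours (1.19 ± 0.24) and Sele, E-selectin, fell there (-1.21 ± 0.29). All 8 interferon genes rose in both models, with medians of 4.77 and 3.56, against 5.09% and 8.6% of all genes tested. They were listed with earlier results of these data known, so this count is no independent result. Of 13 heat shock genes, which also answer to stress during tissue handling, none rose. In spontaneous tumours 1 fell (Dnaja1, -0.36 ± 0.10), against 7.59% of all genes tested. In implanted tumours 2 fell (Hspa1b, -1.16 ± 0.20, and Hspa1a, -0.998 ± 0.13), against 16.4% of all genes tested. Their summed level was 7521 to 8865 CPM in spontaneous and 6095 to 6774 CPM in implanted libraries, and did not separate cGAMP from PBS in either model. Between the models, 4 heat shock genes were lower in implanted tumours after PBS and 3 after cGAMP, against 4.44% and 8.53% of all genes tested.

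Tumour ECs differ along the vessel, so the members were compared between marker sets of cells. A cell belonged to a set when it held UMIs of at least 2 of its markers, which were Gja5, Gja4, Sema3g and Hey1 for the arterial set, Selp, Ackr1 and Sele for the venous (stalk-like) set, Pgf, Adm, Apln and Esm1 for the tip-like set, Aqp7, Timp4, Cd36 and Car4 for the AQP7+ set, and Prox1, Lyve1, Mmrn1 and Ccl21a for the lymphatic set. These sets held 1917, 1400, 951, 858 and 448 cells, a cell could be in more than 1 set, and each set was compared with the other Pecam1+ cells of the same libraries. A sixth, proliferative set had 14 cells in replicate 2 of implanted cGAMP and was not tested. The median UMI count in the 5 tested sets was 0.85 to 6.22 times that of the other cells, with 1.47 to 6.22 times in the tip-like set. Of the cells in a set, 16.4% to 44.3% of the arterial, 14.0% to 50.7% of the venous (stalk-like), 31.0% to 67.8% of the tip-like, 50% to 71.3% of the AQP7+ and 13.8% to 37.8% of the lymphatic cells of a library were also in another set. Cells of no other set were tried for the first 3 sets and not for the AQP7+ and lymphatic sets, which had too few. Many genes differed between such sets, so the members' counts are to be read against large backgrounds. Each of the 4 groups had its own set difference in the fit, and these were averaged. The SE and p of the sets thus reflect the spread between the 2 libraries of a group, not that between groups.

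**Figure D3:**
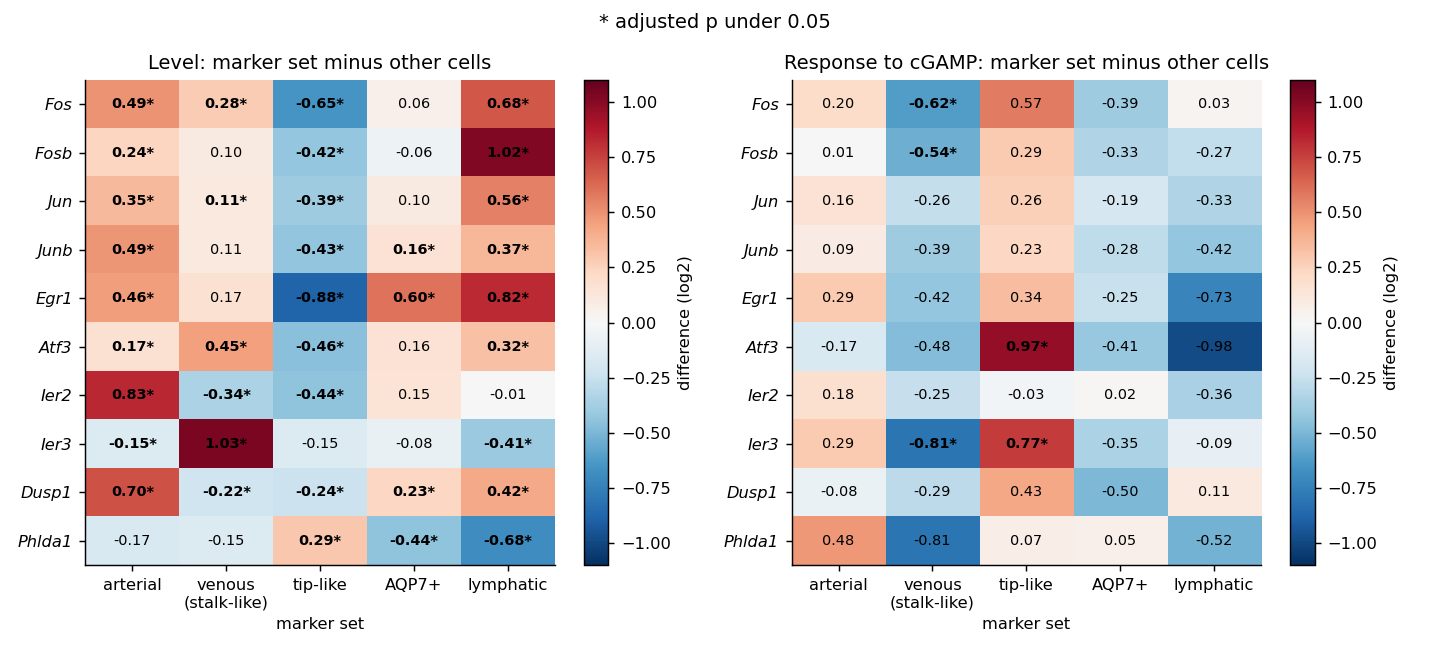
Differences on the log2 scale (colour and number) of each immediate early gene (rows) between the cells of a marker set and the other Pecam1+ cells (columns), for the level (left) and for the response to cGAMP (right); bold numbers with an asterisk passed an adjusted p of 0.05. The tip-like column is blue for 9 members on the left, and only 5 fields passed on the right.

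In the arterial set 8 members were higher and 1 was lower than in other ECs, with 40.5% of all genes called, 20.9% higher and 19.5% lower. Ier2 stood out, and its level in the set was 903 and 843 CPM in the spontaneous PBS libraries, 814 and 1027 in spontaneous cGAMP, 559 and 687 in implanted PBS and 839 and 971 in implanted cGAMP. In the other cells it was 489.8 and 499, 524 and 564, 346 and 445 and 399 and 451 CPM in the same order. The set was higher in 8 of 8 libraries, by 0.83 ± 0.03 on the log2 scale (limma adjusted p = 5.3e-11, 1.1e-12 to 2.1e-07 over 14 alternatives). Dusp1 was higher by 0.70 ± 0.04 and also in 8 of 8 libraries, with levels in the set of 814 and 751 CPM in the spontaneous PBS libraries, 760.4 and 819.9 in spontaneous cGAMP, 525 and 710.4 in implanted PBS and 1008 and 1050.4 in implanted cGAMP, against 434 and 502, 571 and 554, 302 and 442 and 521 and 634 CPM in the same order in the other cells. Fos (0.49 ± 0.03), Junb (0.49 ± 0.03), Egr1 (0.46 ± 0.04), Jun (0.35 ± 0.03) and Fosb (0.24 ± 0.05) were higher in all 8 libraries too. Atf3 (0.17 ± 0.05) was higher in 4 libraries and lower in 4, and its call was lost without any 1 of 4 libraries, replicate 2 of spontaneous PBS, replicate 1 of spontaneous cGAMP, and replicate 2 of implanted PBS and of implanted cGAMP (adjusted p up to 0.0959), and in cells without UMIs of Ptprc, Epcam or Pdgfrb (adjusted p = 0.069). Ier3 was the member called lower (-0.15 ± 0.04), in 6 of 8 libraries, a call lost with at least 3 markers required (-0.08, adjusted p = 0.151) and in cells thinned to 2000 UMIs (-0.10, adjusted p = 0.355).

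In the venous (stalk-like) set 4 members were higher and 2 lower, with 34.8% of all genes called, 11.8% higher and 23% lower. Ier3 was higher in 8 of 8 libraries and was at 643 and 824 CPM in the spontaneous PBS libraries, 672 and 671 in spontaneous cGAMP, 602 and 599 in implanted PBS and 497 and 431 in implanted cGAMP in the set. Other Pecam1+ cells held 254 and 221, 316 and 321, 215 and 293 and 389.9 and 425 CPM in the same order. The difference was 1.03 ± 0.06 on the log2 scale (limma adjusted p = 6.8e-09). Over single libraries it ran from 0.02 to 1.89, and in replicate 2 of implanted cGAMP the set and the other cells were almost level. Atf3 was higher by 0.45 ± 0.07 and Fos by 0.28 ± 0.06, in 7 and 6 of 8 libraries. Jun was higher by 0.11 ± 0.04, a call lost in 6 of 14 alternatives, among them those without replicate 2 of spontaneous PBS or of spontaneous cGAMP or either implanted PBS library (adjusted p up to 0.167). Ier2 (-0.34 ± 0.06) and Dusp1 (-0.22 ± 0.04), the members most raised in the arterial set, were lower here, Ier2 in 8 of 8 libraries. The Ier2 call was lost in cells thinned to 2000 UMIs (-0.25, adjusted p = 0.0856) and the Dusp1 call in cells of no other set (-0.11, adjusted p = 0.076).

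In the tip-like set 8 members were lower and Phlda1 was higher, with 26.8% of all genes called, 11.1% higher and 15.6% lower. Egr1 differed most and was at 301 and 409 CPM in the spontaneous PBS libraries, 629.8 and 787 in spontaneous cGAMP, 222 and 266 in implanted PBS and 369 and 393 in implanted cGAMP in the set. In the other cells it was at 536 and 629.6, 800.3 and 861, 513 and 772 and 694 and 1069 CPM in the same order. It was lower in the set in 8 of 8 libraries, with a difference of -0.88 ± 0.06 on the log2 scale (limma adjusted p = 1.9e-07, 2.3e-08 to 6.9e-06 over 13 alternatives). Over single libraries the Egr1 difference ran from -1.53 to -0.13. Fos (-0.65 ± 0.07), Ier2 (-0.44 ± 0.05), Junb (-0.43 ± 0.04), Fosb (-0.42 ± 0.06) and Jun (-0.39 ± 0.03) were lower as well, each in 8 of 8 libraries. Atf3 (-0.46 ± 0.07) and Dusp1 (-0.24 ± 0.05) were lower in 5 and 6 of 8 libraries, and both calls were lost with at least 3 markers required (-0.21 and -0.19, adjusted p = 0.167 and 0.0804). Phlda1 was higher by 0.29 ± 0.08 in 7 of 8 libraries, but its call was lost in 5 of 13 alternatives, among them those without replicate 1 of spontaneous cGAMP or of implanted PBS (adjusted p up to 0.0699). Ier3 (-0.15 ± 0.06) was not called in the set (limma adjusted p = 0.0673), and with at least 3 markers required its sign turned. The depth of the tip-like and other cells was not equalised, and its part in these differences was not tested.

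The AQP7+ set, named for the glycerol channel of fat-associated capillaries, had 3 members higher and 1 lower, with 13.5% of all genes called, 4.33% higher and 9.14% lower. Egr1 was higher in 8 of 8 libraries, at 1129.8 and 1031 CPM in the spontaneous PBS libraries, 996 and 1278 in spontaneous cGAMP, 600.3 and 852 in implanted PBS and 877 and 1172 in implanted cGAMP in the set. Outside the set it was at 485 and 563, 743 and 817, 430.5 and 678 and 633 and 904 CPM in the same order. The difference was 0.60 ± 0.05 on the log2 scale (limma adjusted p = 1.2e-06) and was called in 11 of 11 alternatives. Phlda1 was lower in 7 of 8 libraries (-0.44 ± 0.08). The calls of Dusp1 (0.23 ± 0.06) and Junb (0.16 ± 0.04) were lost when single libraries were left out, Dusp1 in 4 and Junb in 6 of 8 cases, with adjusted p up to 0.0829 and 0.142, and in cells without UMIs of Ptprc, Epcam or Pdgfrb (adjusted p = 0.081 and 0.121).

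In the lymphatic set, ECs of lymph vessels, 7 members were higher and 2 lower, with 29.6% of all genes called, 13.9% higher and 15.6% lower. Fosb was at 968 and 542 CPM in the spontaneous PBS libraries, 1457 and 888 in spontaneous cGAMP, 609 and 1041 in implanted PBS and 892 and 828 in implanted cGAMP in the set. Outside the set it was at 361 and 368, 525 and 534, 269 and 378 and 495 and 601 CPM in the same order. It was higher in 8 of 8 libraries, by 1.02 ± 0.10 on the log2 scale (limma adjusted p = 1.4e-05). Egr1 (0.82 ± 0.12), Fos (0.68 ± 0.09), Jun (0.56 ± 0.07) and Dusp1 (0.42 ± 0.05) were higher in 8 of 8 libraries as well, and Junb (0.37 ± 0.10) in 7, a call lost without replicate 2 of implanted PBS or of implanted cGAMP (adjusted p up to 0.0609). Atf3 (0.32 ± 0.10) was higher in 5 of 8, a call lost without any 1 of 5 libraries (adjusted p up to 0.108). Phlda1 (-0.68 ± 0.17) and Ier3 (-0.41 ± 0.11) were lower, in 5 and 7 of 8 libraries, and the Ier3 call was lost without replicate 1 of spontaneous cGAMP, replicate 1 of implanted PBS or replicate 2 of implanted cGAMP (adjusted p up to 0.0754). The smallest lymphatic set held 22 cells.

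**Figure D4:**
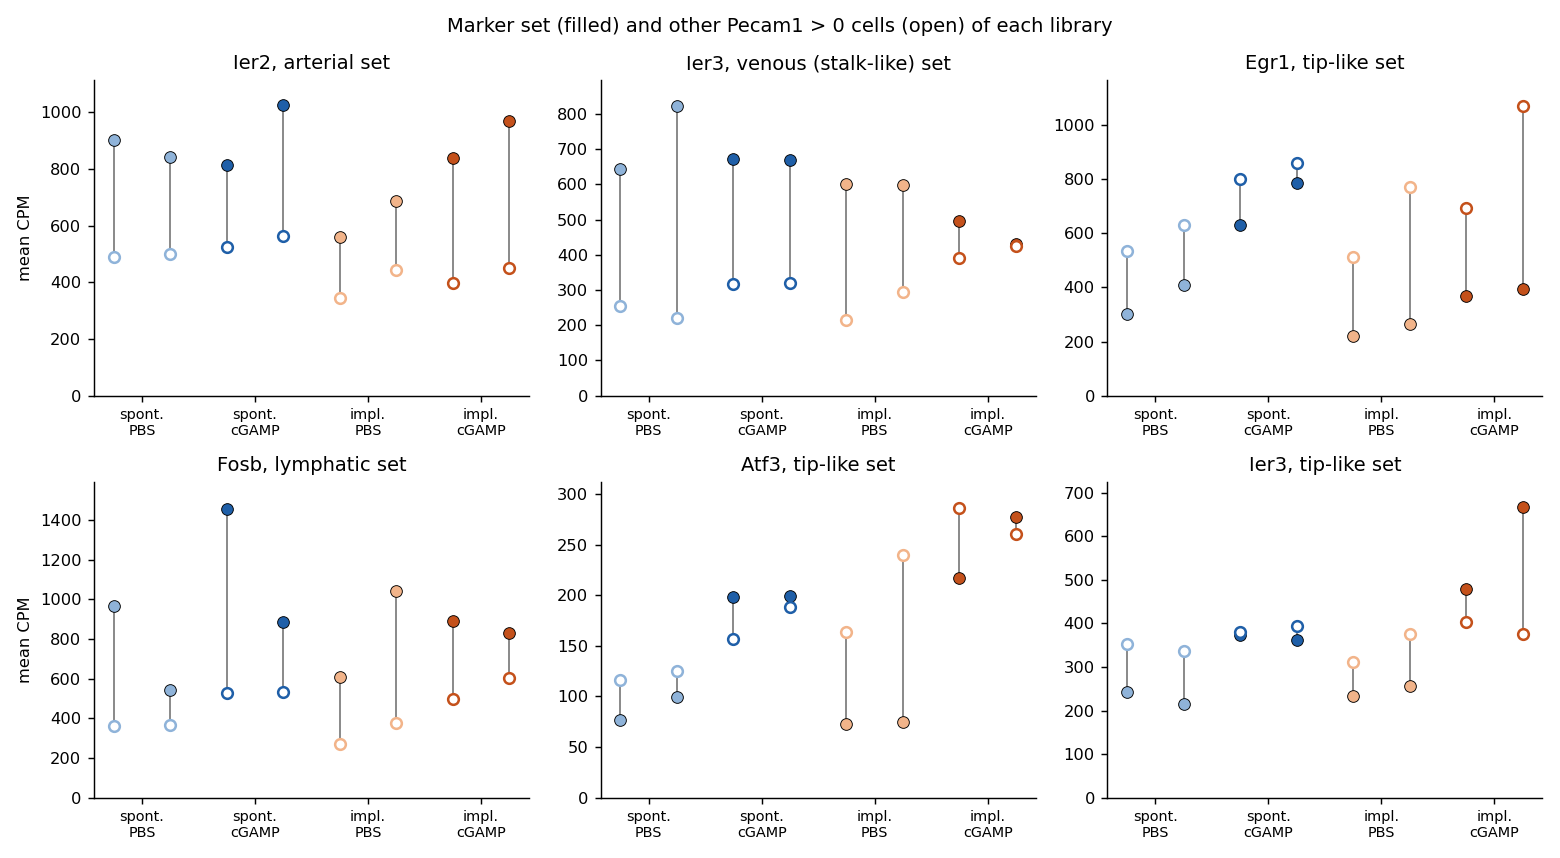
Mean CPM (y axis, starting at 0) of 5 immediate early genes in the cells of a marker set (filled) and in the other Pecam1+ cells (open) of each library, with replicate 1 left of replicate 2 in each group (x axis). Ier2 in the arterial set, Ier3 in the venous (stalk-like) set and Fosb in the lymphatic set were higher in all 8 libraries and Egr1 in the tip-like set was lower in all 8, while Atf3 and Ier3 in the tip-like set were below the other cells in all 4 PBS libraries.

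The response to cGAMP was then compared between each set and the other cells, averaged over both models. In the tip-like set 2 members responded more, Atf3 and Ier3, where 2.05% of all genes were called, 1.21% higher and 0.844% lower. Atf3 in the tip-like set was at 76.8 and 99 CPM in the spontaneous PBS libraries, 198 and 199.5 in spontaneous cGAMP, 72.5 and 74.3 in implanted PBS and 217 and 277 in implanted cGAMP. In the other cells it was at 116 and 125, 157 and 188, 164 and 239.7 and 286 and 260.1 CPM in the same order. On the log2 scale it changed after cGAMP by 1.18 in the set and 0.51 in other cells of spontaneous tumours, and by 1.73 and 0.46 in implanted tumours. The difference of these responses was 0.97 ± 0.14 (limma adjusted p = 0.0055, 0.00175 to 0.122 over 13 alternatives), and it was lost with at least 3 markers required.

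Ier3 in the tip-like set was at 243 and 215 CPM in the spontaneous PBS libraries, 374 and 363 in spontaneous cGAMP, 233 and 257 in implanted PBS and 478 and 668 in implanted cGAMP. In the other cells it was at 352 and 338, 379 and 394, 311 and 375 and 403 and 375 CPM in the same order. It changed after cGAMP by 0.69 in the set and 0.16 in other cells of spontaneous tumours, and by 1.20 and 0.19 in implanted tumours. The difference was 0.77 ± 0.11 (limma adjusted p = 0.00538). It was lost with at least 3 markers required and in cells without UMIs of Ptprc, Epcam or Pdgfrb (adjusted p up to 0.299). Both genes were lower in the set in all 4 PBS libraries, and among the 4 cGAMP libraries Atf3 was higher in the set in 3 and Ier3 in 2.

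In the venous (stalk-like) set 3 members responded less, Ier3, Fos and Fosb, where 2.15% of all genes were called, 1.06% higher and 1.08% lower. Ier3 changed by -0.12 in the set and 0.43 in other cells of spontaneous tumours, and by -0.37 and 0.70 in implanted tumours, a difference of -0.81 ± 0.13 (limma adjusted p = 0.00494). Fos differed by -0.62 ± 0.12 and Fosb by -0.54 ± 0.10 (limma adjusted p = 0.0189 and 0.0158). Fos changed by 0.08 in the set and 0.45 in other cells of spontaneous tumours, and by -0.30 and 0.56 in implanted tumours. For Fosb these changes were 0.38 and 0.60, and 0.06 and 0.92. Whether the models differed in this was not tested. All 3 calls were lost in cells thinned to 2000 UMIs (-0.66, -0.54 and -0.40, adjusted p up to 0.764), and those of Ier3 and Fos with at least 3 markers required. The Fos call was also lost without either spontaneous PBS library, replicate 1 of spontaneous cGAMP or replicate 1 of implanted PBS, and the Fosb call without replicate 2 of spontaneous PBS, replicate 1 of spontaneous cGAMP or replicate 1 of implanted PBS. Of the venous markers, Sele itself fell after cGAMP in spontaneous tumours, as given above, and the part of this in the result was not tested. The number of members called was 1 without replicate 2 of spontaneous PBS, replicate 1 of spontaneous cGAMP or replicate 1 of implanted PBS, and 9 without replicate 1 of implanted cGAMP. No member passed in the arterial, AQP7+ and lymphatic sets, where 1.36% (0.796% higher, 0.566% lower), 0.815% (0.153% higher, 0.662% lower) and 0.576% (0.326% higher, 0.249% lower) of all genes passed, and 6, 7 and 3 members had an unadjusted limma p under 0.05.

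Across single cells the members were correlated with each other to different degrees. After each Pecam1+ cell was thinned to 2000 UMIs, Pearson's r over the cells of a library, averaged over the 8 libraries, was 0.48 for Fos and Egr1, 0.45 for Fos and Junb and 0.44 for Fos and Jun. Over all 45 pairs the median was 0.26 and the range 0.01 to 0.48. Averaged over its 9 partners, r was 0.34 for Fos, 0.32 for Egr1, 0.31 for Junb and 0.30 for Jun, and 0.27, 0.25, 0.22, 0.20 and 0.19 for Fosb, Ier2, Dusp1, Ier3 and Atf3. It was 0.04 for Phlda1, which is also the sparsest member, so a low r is given here as a description only. Cells of a library share its depth and handling, and these values carry no test.

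**Figure D5:**
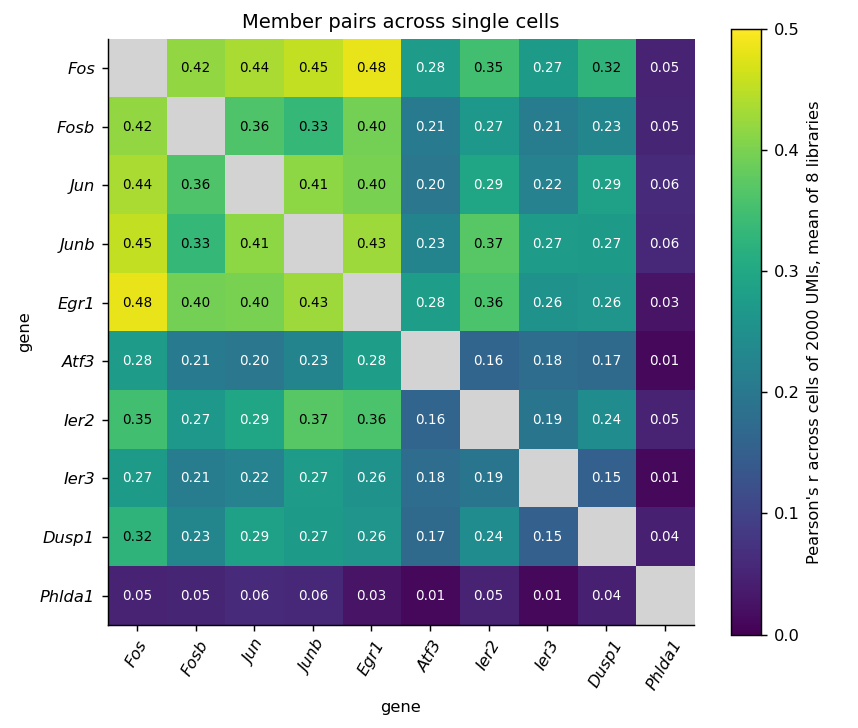
Mean over 8 libraries of Pearson's r across Pecam1+ cells of 2000 UMIs each (colour and number) for every pair of immediate early genes (both axes). The block of Fos, Fosb, Jun, Junb and Egr1 holds values of 0.33 to 0.48, and the Phlda1 row lies at 0.01 to 0.06.

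The UMIs were unevenly spread over cells. Among cells thinned to 2000 UMIs, the 10% of cells with the most UMIs of a gene held a median over libraries of 34.3% of the Jun UMIs and 34.7% of the Junb UMIs. For Fos, Dusp1 and Ier2 the share was 40.5%, 40.7% and 40.9%, and for Ier3, Egr1 and Fosb it was 49.9%, 50.2% and 51.3%. It was 69.1% for Atf3 and 90.8% for Phlda1, the genes with the fewest UMIs. In the same thinned cells, 8 or more of the 10 members were detected at once in 11.6% and 12.3% of cells of the spontaneous PBS libraries and in 16.4% and 19.8% of spontaneous cGAMP. In implanted tumours it was 10.3% and 14.6% after PBS and 18.9% and 22.3% after cGAMP. The cGAMP libraries were above the PBS libraries of their model in both models, which was not tested, and free RNA in the droplets adds to such shares. Thinning left out 22 to 102 cells in each library and 580 in replicate 1 of implanted cGAMP.

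Of 8741 other genes found in at least 5% of Pecam1+ cells of every library, those whose deposited log values were most correlated with the mean of the 10 members were Zfp36 (mean r over 8 libraries 0.68), Jund (0.63), Btg2 (0.60), Ppp1r15a (0.56), Klf4 (0.53), Nfkbiz (0.52), Nr4a1 (0.49), Neat1 (0.47), Nfkbia (0.43) and Socs3 (0.43). The median over all these genes was 0.06. At 2000 UMIs per cell the leading 10 shared 8 genes with this list, and 5 of the 10 were on the list of other early response genes. After cGAMP 1 of these 10 was called in spontaneous tumours, against 12.7% of all genes tested. It was Socs3 (higher by 0.32 on the log2 scale, limma adjusted p = 0.0335). In implanted tumours 4 were called, all higher, against 25% of all genes tested. They were Zfp36 (0.51), Jund (0.41), Neat1 (0.59) and Nfkbia (0.31), with limma adjusted p of 0.0133, 0.0377, 0.00296 and 0.0198. For Btg2, Ppp1r15a and Klf4, among those most correlated with the members, the log2 fold changes in implanted tumours were 0.16, 0.07 and -0.01.

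Some members share their place with another gene, in most cases on the other strand (GENCODE vM21, GRCm38). Junb (chr8:84974484-84978718, minus strand) overlaps Prdx2, which was at 268 to 378 CPM, Jun (chr4:95049034-95052222, minus strand) overlaps Junos (1.30 to 4.17 CPM), Dusp1 (chr17:26505590-26562128, minus strand) overlaps Ergic1 (17.4 to 30.9 CPM) and Gm8225 (up to 1.28 CPM), Atf3 (chr1:191170296-191218039, minus strand) overlaps Gm24748 and Phlda1 (chr10:111506286-111508645, plus strand) overlaps Gm28592 (up to 0.529 CPM). Whether reads were assigned by strand is not given in the sources used here, and without strand the reads of such pairs cannot be told apart. Dusp1 also overlaps AC122252.4 and AC122252.1 on its own strand, which strand would not separate. Fos (chr12:85473890-85477273, plus strand), Fosb (chr7:19302696-19310051, minus strand), Egr1 (chr18:34859823-34864984, plus strand), Ier2 (chr8:84661331-84662852, minus strand) and Ier3 (chr17:35821684-35822923, plus strand) overlap no annotated gene.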

How the data were processed

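Single-cell RNA-seq (10x Chromium, 3′ chemistry) was measured in 8 libraries of sorted tumour ECs, 2 per group. The authors aligned reads to mm10 with Cell Ranger 3.0.0 and filtered and normalised cells in Seurat 3.1.1, and the tools and build come from their processing notes and methods. The deposited values are natural log values per gene and cell, ln(1 + UMIs × 10000 / the cell's UMI total). Their stated filters are at least 500 genes and at most 10% mitochondrial UMIs per cell and at least 3 cells per gene. The deposited cells met the first 2, and each table also lists genes found in 0 of its cells. Every column of values was used, and doublets were not treated.

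UMIs were worked back from these values and were whole within 0.01. CPM per cell was averaged over Pecam1+ cells of a library and tested as log2(mean CPM + 1) with limma 3.58.1 (R 4.3.3) in 1 fit of all 8 libraries, over 10424 genes with at least 5 CPM in 2 or more libraries, with Benjamini-Hochberg adjustment and a threshold of 0.05. Fold changes are on this scale, which understates the change of low genes. A count model had been planned, but the deposited unit called for limma. Marker sets were compared within libraries with the library as a block, where every library had at least 20 cells in the set. The set difference was the mean of 1 coefficient per group, so its SE leaves out the spread between groups. The fits were checked on simulated data. Replicate numbers of the labels were not used as pairs. The 10 members and all gene lists were chosen with earlier results of these data known. Genes named are the members, the 10 genes most correlated with them, and genes drawn from the called ones with the largest changes of each list. These were up to 3 per direction for other early genes and up to 2 for the rest. Not all of them are named: the interferon genes, Cxcl2 and the list genes called between the models are left out. Alternatives covered scaling, filters, pseudocount, cell selection, depth, the replicate block and leaving out each library.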

Additional observations from a re-analysis of the deposited data

Results flagged for a closer look

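For Phlda1 both cGAMP libraries lay below both PBS libraries in spontaneous tumours and above them in implanted ones, and neither change passed the threshold (limma adjusted p = 0.0527 and 0.0659). The difference of its log2 fold changes was 0.64 and missed the threshold when tested as an interaction (limma adjusted p = 0.0934).

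Responses to cGAMP that differed between a marker set and the other Pecam1+ cells, by the interaction in limma, were those of Fos (-0.62), Fosb (-0.54) and Ier3 (-0.81) in the venous (stalk-like) set and of Atf3 (0.97) and Ier3 (0.77) in the tip-like set, all on the log2 scale. With 2 libraries per group, single samples were not tested for standing apart.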

How the results depend on the processing

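Of 55 called member results, 26 kept their call under every alternative run, and no called value changed sign. In spontaneous tumours the only call after cGAMP was a fall in cells under 5% mitochondrial UMIs and in cells outside the proliferative set. Neither Fosb nor Atf3 was called in those cells, where 992 of 10410 and 1124 of 10343 genes were called. With summed UMIs and with only the groups compared, 1 of the calls in spontaneous tumours was a fall. Over all genes 2839 of 10354 and 1639 of 10024 were called there, against 1322 of 10424 in the main fit. The number of members called after cGAMP was 2 in spontaneous tumours, and became 0 without a filter on low values, 4 with summed UMIs, 5 with only the groups compared, and 1 with all deposited cells, with cells under 5% mitochondrial UMIs, outside the proliferative set or in none of the sets (0 to 3 leaving out 1 library). In implanted tumours it was 5, and became 1 without the filter or with only the groups compared, 8 with summed UMIs, 3 without Ptprc, Epcam or Pdgfrb cells, under 5% mitochondrial UMIs or thinned to 2000 UMIs, and 2 outside the proliferative set or in none of the sets (1 to 7). For the difference of the responses the range was 0 to 1. Between the models it was 3 after each injection, and without the filter 1 after PBS and 0 after cGAMP, where it was 1 in cells of none of the sets (1 to 3 after PBS and 0 to 2 after cGAMP leaving out 1 library). Leaving out 1 library, members called between sets numbered 8 to 9 (arterial), 5 to 9 (venous), 8 to 10 (tip-like), 2 to 7 (AQP7+, and 2 without Ptprc, Epcam or Pdgfrb cells) and 7 to 10 (lymphatic). Set responses gave 0 to 1 (arterial, and 1 in cells of no other set), 1 to 9 (venous, and 1 with 3 markers, 8 in cells of no other set, 0 thinned), 2 to 5 (tip-like, and 0 with 3 markers, 1 without Ptprc, Epcam or Pdgfrb cells, 4 with at least 2000 UMIs), 0 to 2 (AQP7+) and 0 to 4 (lymphatic), the last 2 with 1 at a pseudocount of 5 CPM. Calls over all genes moved as well. In spontaneous tumours after cGAMP 812 of 18812 genes were called without the filter and 304 of 10522 in none of the sets. In implanted tumours 2609 of 10424 were called in the main fit, 2179 of 18812 without the filter and 3722 of 10354 with summed UMIs. There, 1831 of 9969 were called with only the groups compared, 1442 of 10526 thinned and 2294 of 10343 outside the proliferative set. All-gene counts for the other alternatives are not given here. The cause of these moves was not tested.

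Signs turned only in values that were not called. Ier3 in the tip-like set was 0.28 with 3 markers (limma adjusted p = 0.0251) and 0.0137 in cells of no other set, and Ier2 in the lymphatic set was 0.00522 with at least 2000 UMIs, 0.22 without replicate 2 of spontaneous PBS (adjusted p = 0.0238), 0.0042 without replicate 2 of implanted PBS, 0.0376 without replicate 2 of implanted cGAMP and -0.23 without replicate 1 of spontaneous PBS. Among other uncalled member values, 98 of 1208 changed sign.

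Replicate numbers were not used as pairs. Over all 10424 genes tested, deviations of same-numbered libraries correlated at -0.22 to 0.13. Among the members, Fos, Jun, Junb and Egr1 were higher in replicate 2 than in replicate 1 in all 4 groups. For Fos this was by 0.21 and 0.19 on the log2 scale in spontaneous PBS and cGAMP, and by 0.70 and 0.26 in implanted PBS and cGAMP. The other members changed direction between groups. With the replicate block 3 members were called after cGAMP in spontaneous and 7 in implanted tumours, and with the spontaneous PBS numbers crossed 2 and 5. Of all 10424 genes, 1230 and 2524 were called with the block, and 1253 and 2516 with the numbers crossed. Not run, for fewer than 20 cells in a library, were 3 markers and cells of no other set for the AQP7+ and lymphatic sets, thinning for these and the tip-like set, leaving out Ptprc, Epcam or Pdgfrb cells for the lymphatic set, and the whole proliferative set. Where a library is left out, its group keeps 1 sample, which is assumed to vary like the other groups.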
